A study of Mus musculus with 10 samples.

Results

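A set of 9 genes of the interleukin-23 (IL-23) axis and of the lymphocytes that respond to it were examined in the jejunum of neonatal mice. They were the rows of the count tables whose symbol was Il23a, Il12b, Il23r, Il12rb1, Ahr, Il17a, Il17f, Ccr6 or Il7r, and all 9 of 9 were found among the 24062 gene symbols of each library. Because several of them lie near the detection floor, raw counts (whole reads assigned to a gene) are given throughout. The jejunum was sampled at postnatal day 5 from wild-type (WT) C57BL/6 mice and from KSR23 mice on the same strain, with 5 libraries in each group. KSR23 mice carry an IL-23 cassette, encoding the p19 and p40 subunits, in the ROSA26 locus, which is switched on by a cre recombinase under the keratin 14 (K14) promoter and is therefore meant to be active in keratinocytes rather than in the gut. The comparison asked how IL-23 made in this way changes gene expression in the small intestine. Both groups are untreated as far as the labels say, and the labels give no sex.

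IL-23 is a secreted heterodimer of the p19 subunit, encoded by Il23a, and the p40 subunit, encoded by Il12b and shared with IL-12. It binds a receptor made of the products of Il23r and Il12rb1 and signals through Janus kinases and STAT3. Its main targets are type 3 lymphocytes, that is, group 3 innate lymphoid cells, T helper 17 cells and some gamma delta T cells. Many of these cells carry the chemokine receptor CCR6 and the IL-7 receptor, and they release IL-17A, IL-17F and IL-22. In the gut they act on the epithelium, and the aryl hydrocarbon receptor (Ahr) helps to maintain them.

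The libraries held 25.5 to 60.9 M counts in genes, and the depth differed between the groups, at 43.2 ± 12.9 M for KSR23 and 29.0 ± 2.97 M for WT (SD, n = 5 each; exact permutation, two-sided, p = 0.0238). A floor of 3 counts stood for 0.0427 to 0.119 counts per M (CPM, on TMM-scaled totals). The epithelial markers of the small intestine summed to 11045 to 18340 CPM in WT and 9029 to 14992 CPM in KSR23, and of 8 such markers 2 were higher (Cdh17 and Krt20) and 2 lower (Fabp2 and Lct) by the edgeR likelihood ratio test, against 2 higher and 1 lower for the quasi-likelihood F test. The former test called 1 of them higher and 0 lower in replicates 1 to 3, and 3 higher and 0 lower without KSR23 replicates 1 and 4. On all 10 libraries it called 18.5% of all genes tested in either direction. Replicates 4 and 5 stood apart in a particular way: within their group they were the highest or the lowest of the 5 libraries at 12.4% to 21.3% of 13181 genes, where 40% would be met by exchangeable libraries, while replicates 1 to 3 were so at 45.1% to 70.2%. Replicates 4 and 5 thus lay between the others at most genes, and counts of calls that the text leads with are given with and without them. Reads of 4 Y-linked genes numbered 492 to 6347 in the 5 WT libraries, but 9035 and 4330 in KSR23 replicates 1 and 4 and 1 to 9 in KSR23 replicates 2, 3 and 5, so these reads were unevenly spread over the groups. In 3 of 10 libraries (WT replicates 3 and 5 and KSR23 replicate 4) at least 100 reads of both the Y-linked genes and Xist were present. The study describes the libraries as biological replicates, and the labels number them without naming animals or pools, so p-values measure the spread between these libraries. They treat all libraries as independent, which was not tested for replicates 4 and 5.

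To show where the transcripts of these genes begin, their promoters were read from RefSeq (build GRCm38.p6, 250 bases before to 50 after the start), in which 6 of the 9 genes had an entry. Windows were searched on both strands for the half-site AGGTCA (reverse TGACCT) that some nuclear receptors can bind. The half-site was found in Il17a, Il17f and Il23r and in 1 of the 2 windows of Ccr6, and not in those of Il12b or Il7r, and 16.3% of all 32817 promoters of the same length hold it. The 4 windows with a match are shown because they belong to the cytokine pair, the receptor and the chemokine receptor whose counts are compared here. Capitals mark AGGTCA or TGACCT, the TATA box letters TATAAA (found in 13.6% of all promoters, either strand) and the STAT element TTCNNNGAA (8.29%). None of these motifs overlapped another in the 4 windows.
Il17a (chr1:20730655-20730954, plus strand): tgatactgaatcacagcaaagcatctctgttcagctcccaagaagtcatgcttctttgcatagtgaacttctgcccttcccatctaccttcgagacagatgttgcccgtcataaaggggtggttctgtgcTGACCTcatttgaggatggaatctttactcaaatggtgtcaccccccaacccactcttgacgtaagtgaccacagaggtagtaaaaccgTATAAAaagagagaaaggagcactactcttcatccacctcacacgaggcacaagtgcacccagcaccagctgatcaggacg
Il17f (chr1:20784221-20784520, minus strand): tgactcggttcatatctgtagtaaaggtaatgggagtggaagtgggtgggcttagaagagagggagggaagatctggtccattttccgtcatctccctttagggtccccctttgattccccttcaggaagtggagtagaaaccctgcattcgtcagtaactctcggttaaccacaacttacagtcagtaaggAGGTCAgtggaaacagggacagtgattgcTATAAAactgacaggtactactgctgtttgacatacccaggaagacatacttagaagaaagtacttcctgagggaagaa
Il23r (chr6:67491806-67492105, minus strand): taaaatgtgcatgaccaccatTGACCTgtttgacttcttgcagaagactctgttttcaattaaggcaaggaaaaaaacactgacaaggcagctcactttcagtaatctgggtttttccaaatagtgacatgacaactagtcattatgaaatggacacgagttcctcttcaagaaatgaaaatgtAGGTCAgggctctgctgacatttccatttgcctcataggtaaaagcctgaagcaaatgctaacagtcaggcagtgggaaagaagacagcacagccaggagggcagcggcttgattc
Ccr6 (chr17:8235793-8236092, plus strand): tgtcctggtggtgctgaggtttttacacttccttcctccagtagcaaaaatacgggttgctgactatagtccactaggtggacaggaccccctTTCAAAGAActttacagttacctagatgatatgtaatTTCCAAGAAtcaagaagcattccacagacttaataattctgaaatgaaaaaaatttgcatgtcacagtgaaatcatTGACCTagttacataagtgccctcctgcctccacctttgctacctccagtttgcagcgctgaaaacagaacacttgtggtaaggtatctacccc
The Il17a and Il17f windows each held a TATA box, beginning 31 and 29 bases before the start, and the half-site lay upstream of it, beginning 120 and 58 bases before the start. The Il23r window held the half-site at 2 places, 229 and 66 bases before the start, and no TATA box. The Ccr6 window held it 44 bases before the start and was the only 1 of the 4 with STAT elements, of which it had 2. A match is a match of letters and does not show that a factor binds there.

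Transcripts of 3 of the genes were higher in KSR23 jejunum: the p40 subunit gene Il12b (5.00-fold), the cytokine gene Il17f (10.7-fold) and the chemokine receptor gene Ccr6 (3.07-fold). The p19 gene Il23a, both receptor genes and Il7r did not pass the test, Ahr was at nearly the same level in both groups, and Il17a was at the floor. Of the 9 genes, 8 had at least 5 counts in at least 1 library and were tested, each of them also with 5 or more counts in a WT library. By the likelihood ratio test of edgeR on all 10 libraries, 3 of the 8 were called higher in KSR23 (adjusted p under 0.05), where 9.74% of 17632 genes tested were called higher, and 0 of 8 were called lower (0 also at an unadjusted p under 0.05, none by the quasi-likelihood F test and by DESeq2). In either direction 18.5% of genes were called. The same 3 genes were called by the quasi-likelihood F test of edgeR, by which 8.47% of genes were called higher. These quasi-likelihood calls were lost in many fits without 1 library, Il12b staying called in 1 of 10, Il17f in 3 and Ccr6 in 8, with 0 of 8 genes called without WT replicate 1 or WT replicate 4, and neither edgeR test called any of the 8 in replicates 1 to 3 alone. In the same 3 genes every KSR23 library lay above every WT library in CPM, as was seen in 7.41% of the genes tested. The median log2 fold change of the 8 was 1.18, against 0.03 over all genes tested. The 9 genes were chosen with earlier results of these data known, so these comparisons with all genes are descriptions. In bulk tissue, fewer cells of a type and less RNA per cell cannot be told apart, in either direction.

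**Figure D1:**
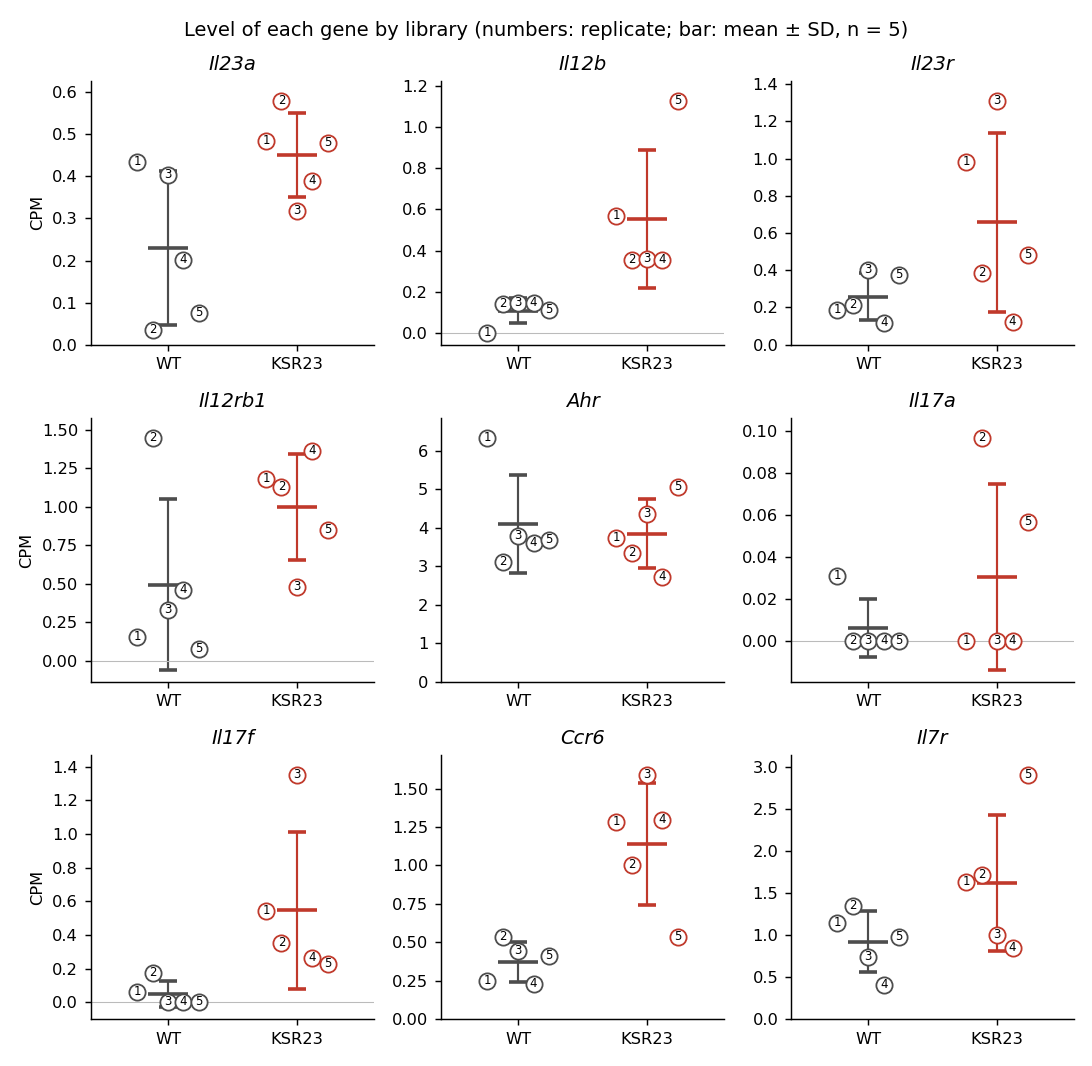
CPM of each of the 9 genes in the 5 WT (grey) and 5 KSR23 (red) libraries; circles are libraries with their replicate number, and bars are the mean ± SD. The groups do not overlap for Il12b, Il17f and Ccr6, although the lowest Ccr6 value of KSR23 (0.536 CPM) is close to the highest of WT (0.530 CPM), and Il17a is at 0 in 7 of 10 libraries.

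The ligand subunits were taken first. Il12b (chr11:44400063-44414033, plus strand, build mm10, 8 merged exons) received 0, 4, 4, 5 and 3 reads in replicates 1 to 5 of WT, against 40, 11, 9, 20 and 40 reads in those of KSR23. Every KSR23 library exceeded every WT library, with replicates 1 and 5 highest in counts and replicate 5 highest in CPM. The mean rose from 0.109 ± 0.0624 to 0.553 ± 0.335 CPM (SD, n = 5 each). On the log2 scale this was a change of 2.32 (SE 0.66; adjusted p = 0.00364 by the likelihood ratio test of edgeR, 0.0441 by its quasi-likelihood F test). The WT level is within a few counts of the floor, so the size of the change is loosely known (95% interval on the log2 scale 1.03 to 3.61).

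Il23a (chr10:128296139-128298752, minus strand, 3 merged exons) received 14, 1, 11, 7 and 2 reads in the WT libraries, against 34, 18, 8, 22 and 17 in those of KSR23. The groups overlapped, since WT replicates 1 and 3 reached 0.433 and 0.404 CPM and the lowest KSR23 library was at 0.318 CPM, although 3 of 5 KSR23 libraries lay above all WT libraries. The log2 fold change of 0.95 (SE 0.59, 95% interval -0.20 to 2.11) did not pass the test (adjusted p = 0.27, edgeR likelihood ratio test). Compared per kb of exon, Il12b made up 43.9% ± 31.5 of the summed level of the 2 subunit genes in WT, against 55.7% ± 11.6 in KSR23 (SD, n = 5 each), a difference within the spread between libraries (two-sided exact permutation p = 0.476). The cassette encodes both subunits, and a gene count does not tell reads of the cassette from reads of the mouse's own Il23a and Il12b, so the 2 sources cannot be told apart here. Krt14, the keratin whose promoter drives the cre, had 55 to 107 counts in WT and 65 to 173 in KSR23 (log2 fold change 0.17, SE 0.37, adjusted p = 0.814), which places keratin 14 transcripts in both groups of jejunum libraries at a low level.

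The groups overlapped for both receptor genes, and neither passed the test on all 10 libraries. Il23r (chr6:67422932-67491855, minus strand, 11 merged exons), the subunit specific to IL-23, received 6, 6, 11, 4 and 10 reads in the WT libraries, against 69, 12, 33, 7 and 17 in those of KSR23. KSR23 replicates 1 and 3 were high and replicates 2 and 4 lay within the WT range in CPM. The log2 fold change was 1.34 (SE 0.65, 95% interval 0.06 to 2.62, adjusted p = 0.146 by the likelihood ratio test of edgeR, 0.185 by its quasi-likelihood F test). One library decided this call: without KSR23 replicate 4 the log2 fold change was 1.65, with an adjusted p of 0.0325 by the edgeR likelihood ratio test, and the quasi-likelihood F test did not call it in any of its 10 leave-one-out fits (adjusted p 0.0811 to 0.339).

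Il12rb1 (chr8:70808449-70821424, plus strand, 16 merged exons), whose product is shared with the IL-12 receptor, received 5, 41, 9, 16 and 2 reads in the WT libraries, against 83, 35, 12, 77 and 30 in those of KSR23. WT replicate 2, at 1.45 CPM, lay above every KSR23 library, while the other 4 WT libraries lay between 0.0751 and 0.461 CPM, below every KSR23 library. The log2 fold change was 1.02 (SE 0.66, 95% interval -0.27 to 2.31, adjusted p = 0.303, edgeR likelihood ratio test). Without WT replicate 2 it was 2.0 and was called by both edgeR tests (likelihood ratio test, adjusted p = 0.00662; quasi-likelihood F test, adjusted p = 0.0407), so here too the call rests on 1 library.

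Ahr (chr12:35497974-35535038, minus strand, 11 merged exons), a ligand-activated transcription factor of lymphocytes, epithelium and other cells, was the most abundant of the 9 genes. The WT libraries held 205, 88, 103, 125 and 98 Ahr reads, against 262, 104, 110, 154 and 179 in those of KSR23. The groups overlapped over most of their range, with means of 4.10 ± 1.28 CPM (WT) and 3.85 ± 0.90 CPM (KSR23; SD, n = 5 each). The log2 fold change was -0.10 (SE 0.32, adjusted p = 0.88, edgeR likelihood ratio test), with a 95% interval of -0.73 to 0.53. The sign of the Ahr value turned when WT replicate 1 or KSR23 replicate 4 was left out (0.12 and 0.047), so no direction can be given.

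The 2 cytokine genes lie next to each other on chromosome 1, 42.6 kb apart. Il17f (chr1:20777146-20790617, minus strand, 7 merged exons) received 2, 5, 0, 0 and 0 reads in the WT libraries, against 38, 11, 34, 15 and 8 in those of KSR23. All KSR23 libraries exceeded all WT libraries, and KSR23 replicate 3 was highest at 1.35 CPM. The mean rose from 0.0477 ± 0.077 to 0.548 ± 0.465 CPM (SD, n = 5 each). On the log2 scale this was a change of 3.42 (SE 0.96, 95% interval 1.55 to 5.30; adjusted p = 0.00343 by the likelihood ratio test of edgeR, 0.0387 by its quasi-likelihood F test). Its size moved with single libraries near the floor: it was 4.83 without WT replicate 2 and 2.80 without KSR23 replicate 3, and it was called in both by the edgeR likelihood ratio test.

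Il17a (chr1:20730905-20734496, plus strand, 3 merged exons) received 1 read in WT replicate 1 and 0 in the other WT libraries, against 0, 3, 0, 0 and 2 reads in those of KSR23. No library held more than the floor of 3 counts, so no fold change is given, and a difference was not detectable at this depth (two-sided exact permutation p of the CPM = 0.444, of 252 splits). Of the reads assigned to either gene, Il17a took 1 of 8 in WT and 5 of 111 in KSR23, or 4.5% (95% exact Clopper-Pearson interval 1.48 to 10.2%, counting error only, since the reads carry no molecular identifiers). Per kb of exon, the mean level of Il17a in KSR23 was 0.0262 CPM and that of Il17f 0.271 CPM.

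Ccr6 (chr17:8236043-8257141, plus strand, 8 merged exons) encodes the receptor for the chemokine CCL20 and is carried by type 3 lymphocytes and also by B cells. The WT libraries held 8, 15, 12, 8 and 11 Ccr6 reads, against 90, 31, 40, 73 and 19 in those of KSR23. All KSR23 libraries lay above all WT libraries, but replicate 5, the lowest, was at 0.536 CPM against 0.530 CPM in WT replicate 2. The mean rose from 0.372 ± 0.129 to 1.14 ± 0.397 CPM (SD, n = 5 each). On the log2 scale this was a change of 1.62 (SE 0.44, 95% interval 0.75 to 2.49; adjusted p = 0.00317 by the likelihood ratio test of edgeR, 0.0212 by its quasi-likelihood F test).

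Markers of B cells, which also carry CCR6, were read beside this result, and their part in it was not tested. By the edgeR likelihood ratio test, which called 9.74% of all genes higher, 3 of 7 tested B cell markers were higher in KSR23 and 0 lower. The same test called 0 of 7 in replicates 1 to 3 and 1 of 6 (Blk) without KSR23 replicates 1 and 4, and Pax5 was at 0 in all 10 libraries. Their summed level ran from 6.29 to 8.85 CPM in WT and from 6.58 to 14.0 CPM in KSR23, with KSR23 replicates 1 and 4 highest at 14.0 and 11.7 CPM. Fcer2a, the low-affinity IgE receptor of B cells, had 64 and 99 counts in those 2 libraries and 0 to 4 in the other 8, and these are also the deepest libraries and those with the highest Ccr6 counts, while in CPM the highest Ccr6 value was that of KSR23 replicate 3 (1.59, against 1.28 and 1.29 in replicates 1 and 4). Without KSR23 replicates 1 and 4 the log2 fold change of Ccr6 was 1.51 (adjusted p = 0.0212 by the likelihood ratio test of edgeR, 0.063 by its quasi-likelihood F test). T cell markers summed to 13.1 to 18.2 CPM in WT and 11.8 to 18.9 CPM in KSR23. By the edgeR likelihood ratio test, which called 18.5% of all genes in either direction, 1 of 10 was higher (Cd5) and 2 lower (Cd3g, Cd8a). Of these, 1 (Cd3g) stayed called by the quasi-likelihood F test and without KSR23 replicates 1 and 4, and 0 of 10 were called in replicates 1 to 3.

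**Figure D2:**
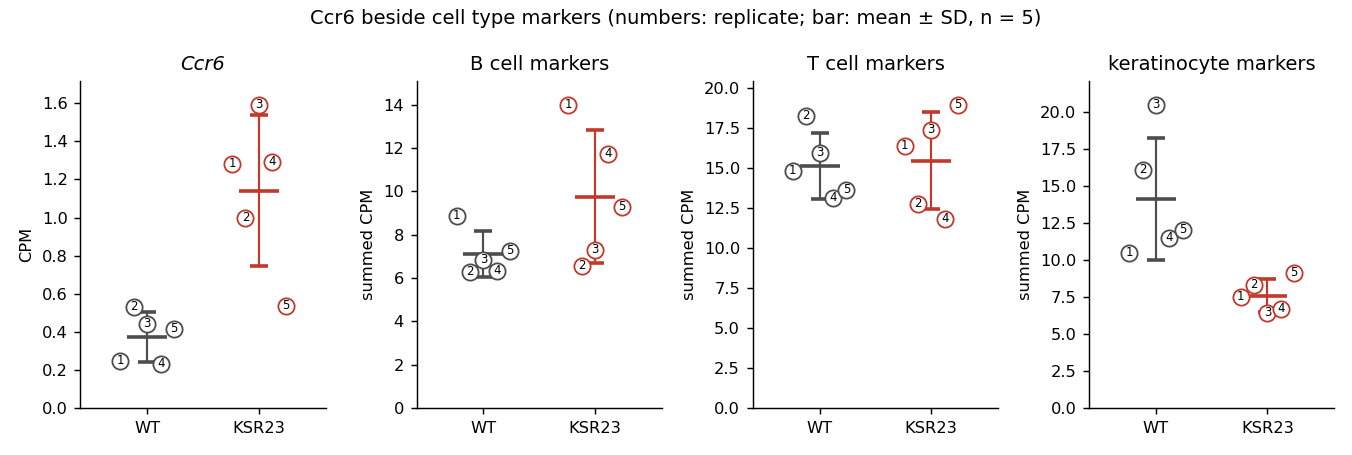
Ccr6 (CPM) beside the summed CPM of B cell, T cell and keratinocyte markers in the 5 WT (grey) and 5 KSR23 (red) libraries, with replicate numbers in the circles and bars at the mean ± SD. KSR23 replicates 1 and 4 are highest for B cell markers (14.0 and 11.7 CPM), whereas KSR23 replicate 3, with 7.27 CPM of B cell markers, has the highest Ccr6 value (1.59 CPM).

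Il7r (chr15:9505788-9530176, minus strand, 9 merged exons) encodes the IL-7 receptor alpha chain of innate lymphoid cells and T cells. The WT libraries held 37, 38, 20, 14 and 26 Il7r reads, against 115, 53, 25, 48 and 103 in those of KSR23. KSR23 replicates 1, 2 and 5 lay above all WT libraries in CPM, and replicates 3 and 4 fell within the WT range. The log2 fold change was 0.81 (SE 0.46, 95% interval -0.08 to 1.71, adjusted p = 0.22, edgeR likelihood ratio test), and Il7r was not called in any alternative.

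Levels were compared between genes per kb of merged exon. In WT the order from the highest mean was Ahr (0.666 CPM per kb), Il7r (0.197), Ccr6 (0.16), Il12rb1 (0.12), Il23r (0.104), Il23a (0.102), Il12b (0.0554), Il17f (0.0236) and Il17a (0.00529). Ahr stood above Il7r in 5 of 5 WT libraries with no overlap of their ranges, and every other pair of neighbours in this order overlapped. In KSR23 the order was Ahr (0.624), Ccr6 (0.491), Il7r (0.347), Il12b (0.281), Il17f (0.271), Il23r (0.264), Il12rb1 (0.243), Il23a (0.2) and Il17a (0.0262). There the ranges of Ahr and Ccr6 overlapped, with Ahr higher in 4 of 5 libraries, and among neighbours the only pair that did not overlap was Il23a and Il17a. Il12b and Il17f, the 2 lowest genes in WT apart from Il17a, had means close to those of Il23r and Il12rb1 in KSR23.

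The 3 calls were followed through subsets of the libraries. With replicates 1 to 3 alone, 0 of 8 genes were called (4 at an unadjusted p under 0.05 by the edgeR likelihood ratio test; the quasi-likelihood F test also called 0, with 3 at an unadjusted p under 0.05), where 2.01% of 17243 genes were called higher by the likelihood ratio test. The log2 fold changes were then 2.18 for Il12b, 3.20 for Il17f and 1.69 for Ccr6 (adjusted p = 0.295, 0.0803 and 0.176, edgeR likelihood ratio test), close in size to those of all 10 libraries. Leaving out each library in turn, the likelihood ratio test called all 3 genes in 10 of 10 fits. Without KSR23 replicates 1 and 4, the likelihood ratio test called the same 3 (adjusted p = 0.00705, 0.00953 and 0.0212), where 12.7% of 17205 genes were called higher. In the same subset the quasi-likelihood F test of edgeR called 0 of 8 (5 at an unadjusted p under 0.05), although it called 11.8% of genes higher, more than the 8.47% on all 10 libraries. With Y-linked counts as a covariate, Il12b (1.98, adjusted p = 0.0478), Il17f (3.09, 0.0451) and Ccr6 (1.75, 0.00805) stayed called by the likelihood ratio test of edgeR.

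**Figure D3:**
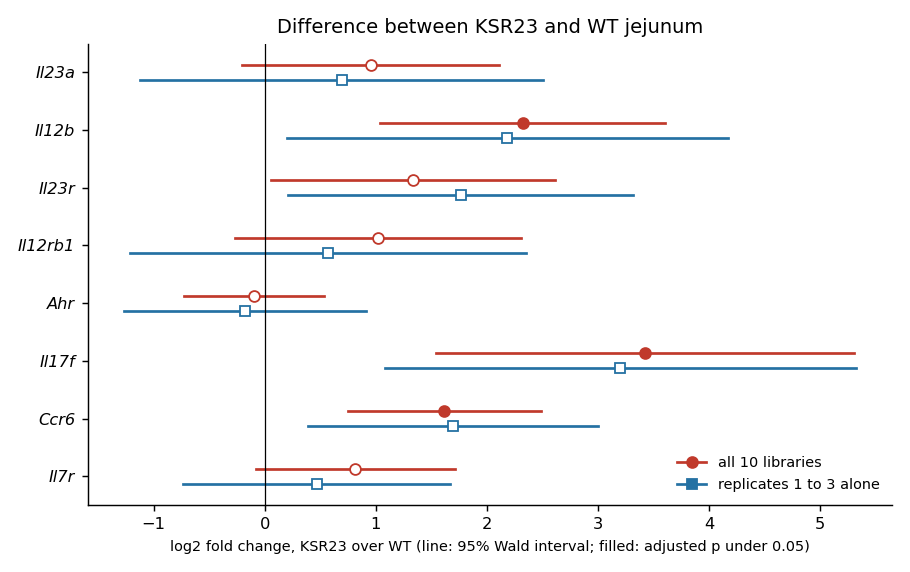
Log2 fold change (KSR23 over WT) of the 8 tested genes with its 95% Wald interval, from all 10 libraries (red circles) and from replicates 1 to 3 alone (blue squares); filled symbols have an adjusted p under 0.05 by edgeR's likelihood ratio test. Il12b, Il17f and Ccr6 are filled in the fit of 10 libraries and none is filled in the smaller fit, where the intervals are wider.

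The neighbouring genes of the axis were read from lists chosen by function, with earlier results of these data known. In all, 78 genes outside the 9 were listed, 74 were tested, and 15 were called higher and 1 lower by the edgeR likelihood ratio test, where 9.74% of all genes tested were called higher, with a median log2 fold change of 0.37 against 0.03 over all genes. In replicates 1 to 3 alone the same test called 4 higher and 1 lower (against 2 and 0 for the quasi-likelihood F test), where 2.01% of all genes were called higher, and without KSR23 replicates 1 and 4 it called 13 of 73 higher and 3 lower, where 12.7% were called higher. Among subunits and receptors of the IL-12 family, 1 of 5 was higher, Il6st, the shared signalling chain gp130 (log2 fold change 1.28, adjusted p = 0.0118). The gene of the other IL-12 subunit, Il12a, had 0 to 4 counts and was not tested. Downstream of the receptor, 3 of 7 genes were higher, among them the feedback inhibitor Socs3 (4.36, adjusted p = 1.54e-08) and the receptor kinase Tyk2 (1.18, 0.0441; edgeR likelihood ratio test). Tyk2 was not called by the quasi-likelihood F test (adjusted p = 0.0738), and of these 3 only Socs3 was called in replicates 1 to 3 or without KSR23 replicates 1 and 4 (likelihood ratio test). Il6st was called in neither of these subsets.

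Of 13 transcription factors of type 3 lymphocytes 3 were called, a share near the 18.5% of all genes called in either direction (edgeR likelihood ratio test). By this test 2 were higher, Zbtb16 (2.99, adjusted p = 0.00129) and Runx1 (1.18, 0.0194), and 1 was lower, Id2 (-2.02, 1.98e-11). Id2 alone of the 3 was called in replicates 1 to 3, and Id2 and Zbtb16 without KSR23 replicates 1 and 4 (likelihood ratio test). Id2 had 8139 to 16233 counts in WT and is also made by epithelial cells.

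Of 7 other tested cytokines of these cells 3 were higher. Il22, which acts on epithelium, received 1, 0, 0, 0 and 1 reads in the WT libraries, against 287, 137, 284, 250 and 329 in those of KSR23. With all WT libraries under the floor of 3 counts per library, the level in KSR23 was at least 65.9-fold higher (adjusted p = 5.08e-29 by the edgeR likelihood ratio test), and 29.9% of its 75-base stretches also occur in the near copy Iltifb, which can lower its counts. Ifng (2.86, adjusted p = 0.00167) and Tnf (2.18, 0.000276) were also higher, and Il21 was at 0 in all libraries. Of these 3, Il22 and Ifng were called in replicates 1 to 3, and all 3 without KSR23 replicates 1 and 4 (edgeR likelihood ratio test).

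Surface genes of innate lymphocytes were mostly not called: 1 of 15, the IL-2 receptor alpha chain Il2ra, was higher (1.48, adjusted p = 0.0377 by the edgeR likelihood ratio test), and 0 of 15 by the quasi-likelihood F test (0.0778 for Il2ra; 3 higher and 1 lower at an unadjusted p under 0.05). DESeq2 called 2 higher, and by the likelihood ratio test 0 of 15 were called in replicates 1 to 3 (0 also at an unadjusted p under 0.05) and 1 without KSR23 replicates 1 and 4. Among ligands and partners of CCR6 and the IL-7 receptor, 1 of 9 was higher, Ccl20, the ligand of CCR6, which had 83 to 213 counts in WT and 1821 to 4912 in KSR23 (4.08, adjusted p = 5.21e-14, edgeR likelihood ratio test). Ccl20 was also called in replicates 1 to 3 and without KSR23 replicates 1 and 4. In the latter subset Crlf2, a chain of the receptor for the IL-7-like cytokine TSLP, was called lower (-2.55, adjusted p = 0.00994 from edgeR's likelihood ratio test and 0.0458 from its quasi-likelihood F test). These 2 of 9 are a share near that of all genes called in this subset in either direction (23.4% by the likelihood ratio test). On all 10 libraries Crlf2 was not called, and 0 of the 9 were lower at an unadjusted p under 0.05 by the likelihood ratio test. Il7, the ligand of the other receptor, had 125 to 254 and 169 to 436 counts (-0.11, SE 0.30, 95% interval -0.71 to 0.48, adjusted p = 0.848). The ligand of CCR6 and its receptor were thus both called, while neither Il7 nor Il7r was.

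A list of 13 IL-17 receptors and targets also held the ligand gene Il17c and the adaptor gene Traf3ip2. Of the 13, 4 were higher and 0 lower by the edgeR likelihood ratio test (0 lower also at an unadjusted p under 0.05). The quasi-likelihood F test and DESeq2 each called 5 higher and 0 lower. Whether IL-17 or another cytokine acts on these genes here was not tested. The 4 were the neutrophil chemokines Cxcl1 (2.69, adjusted p = 0.00207) and Cxcl5 (2.32, 0.000261), the regulator Nfkbiz (2.20, 8.28e-07) and the iron-binding lipocalin Lcn2 (1.45, 0.000792; edgeR likelihood ratio test). All 4 are targets and none is a receptor, and 0 of 13 were called in replicates 1 to 3 (5 at an unadjusted p under 0.05 by the edgeR likelihood ratio test; 0 called and 4 at an unadjusted p by the quasi-likelihood F test). Without KSR23 replicates 1 and 4, all 4 and also Traf3ip2 were called higher and 0 lower by both edgeR tests (at an unadjusted p under 0.05, 3 were lower in the former test and 2 in the quasi-likelihood F test). Of 8 tested partners and targets of AHR, 0 were called by either edgeR test on all 10 libraries (1 higher and 2 lower at an unadjusted p under 0.05 by the likelihood ratio test), and DESeq2 called 1 higher and 1 lower. In replicates 1 to 3, 0 were called (0 also at an unadjusted p under 0.05), and without KSR23 replicates 1 and 4 the likelihood ratio test called 1 higher and 1 lower, a share near the 23.4% of all genes called there in either direction, and the quasi-likelihood F test called 0 (1 higher and 1 lower at an unadjusted p under 0.05). Cyp1a1, its classical target, had 1 count in 1 WT library and 0 in the other 9, and Cyp1a2 was at 0.

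**Figure D4:**
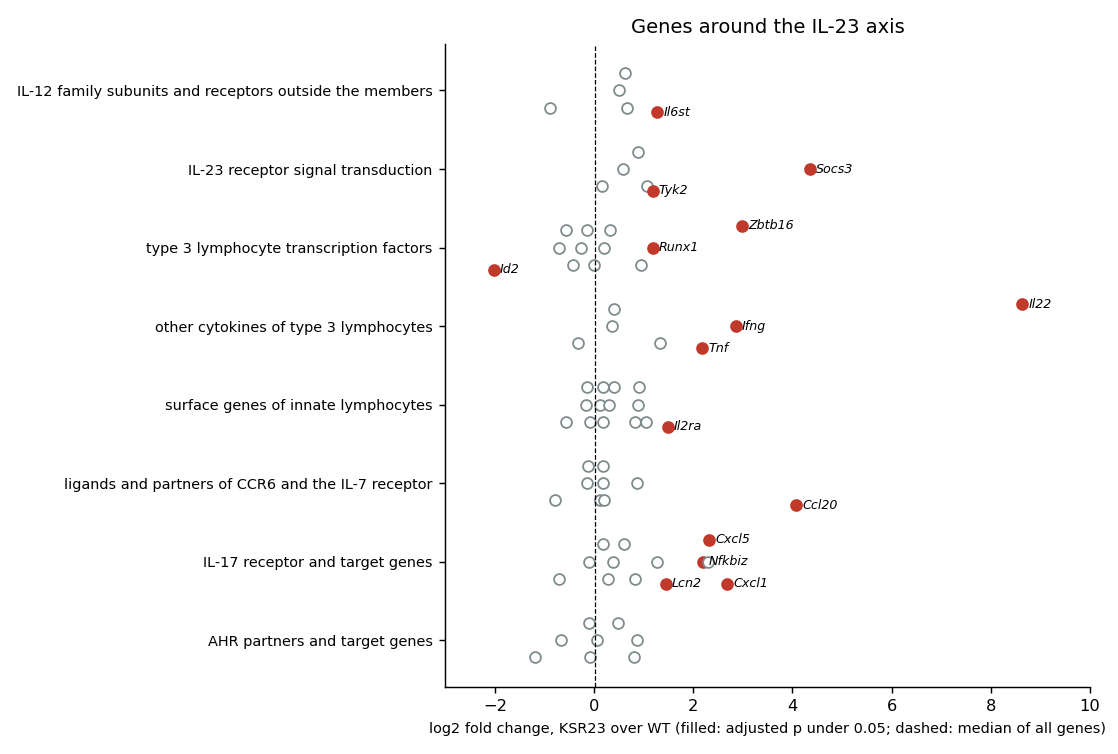
Log2 fold change (KSR23 over WT) of tested genes of 8 lists around the IL-23 axis, 1 point per gene and list, without 2 genes that are not reported here; filled points have an adjusted p under 0.05 by edgeR's likelihood ratio test on 10 libraries, and the dashed line is the median of all genes tested (0.03). Il22 lies farthest to the right, as a fitted value against WT libraries with at most 1 count, Id2 is the one filled point below 0, and the AHR list has no filled point.

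Markers of other cell types and tissues were also read, and their part in the results above was not tested. The edgeR likelihood ratio test called 9.74% of all genes higher and 18.5% in either direction. The 2 calls among 11 myeloid and dendritic cell markers given below are near the latter share. Of 5 tested keratinocyte markers 0 were higher and 2 lower (Krt10 and Krt15; edgeR likelihood ratio test), their summed level was 10.5 to 20.5 CPM in WT and 6.40 to 9.12 CPM in KSR23, and Dsg3 was at 0. Of 7 listed markers of pancreatic acinar cells, all 4 tested were lower (Cpa1, Cela1, Ctrb1 and Sycn). Amy2a5 and Ptf1a were at 0 in all 10 libraries, and Pnlip was below the filter. The list summed to 99.3 to 204 CPM in WT and 5.87 to 15.6 CPM in KSR23. The paper describes digestive enzymes as also made by the jejunum. Markers of myeloid and dendritic cells, which are known sources of p19 and p40, summed to 226 to 270 CPM in WT and 155 to 246 CPM in KSR23, with 1 of 11 higher (Itgam) and 1 lower (Cd68). Of 7 tested lymphoid tissue organiser genes 2 were higher (Ccl19 and Icam1) and 1 lower (Madcam1), and Ccl19 had 154 and 80 counts in KSR23 replicates 1 and 4 and 0 to 10 in the other 8 libraries. These counts are from the edgeR likelihood ratio test on all 10 libraries. In replicates 1 to 3, 0 of 4 keratinocyte, 0 of 11 myeloid and 0 of 7 organiser genes were called, and 3 of 4 acinar genes were lower. Without KSR23 replicates 1 and 4, 2 keratinocyte and 3 acinar genes were lower, and 1 myeloid and 1 organiser gene were higher and 2 of each lower. The quasi-likelihood F test on all libraries called 1 keratinocyte and 3 acinar genes lower, 0 myeloid genes higher and 1 lower, and 2 organiser genes higher and 1 lower.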

How the data were processed

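RNA of 5 WT and 5 KSR23 jejuna (postnatal day 5) was primed with oligo-dT, amplified and sequenced as single-end reads without molecular identifiers. The deposited values were counts, whole and not normalized. Per the submitters' processing notes, the authors mapped reads with TopHat2 2.1.0 to build mm10 and counted them per gene with HTSeq 0.6.1p1; the methods name a strict intersection with transcript models. Reads with several alignments entered no gene, and the strand setting is not given in the sources used here. Each file ended with 5 rows of counter totals, which entered neither library sizes nor tests.

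Groups came from the sample titles. Genes with at least 5 counts in at least 1 library (17632) were fitted in edgeR 4.0.16 (R 4.3.3) with TMM factors and negative binomial models, with no term but the group. The likelihood ratio test gave the p-values, adjusted by Benjamini-Hochberg over all genes tested, and a gene is called where its adjusted p is under 0.05. CPM use TMM-scaled totals, intervals are 95% Wald intervals, and permutation tests are exact and two-sided over 252 splits (smallest p 0.00794). The scripts were tested on simulated data.

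Positions are from GENCODE M21 (mm10). None of the 9 genes overlapped another annotated gene except Ahr, which overlaps the lincRNA Gm48236, and at most 0.86% of their 75-base stretches occurred in another gene. The 9 genes and the lists were chosen with earlier results of these data known. Named besides the 9 were up to 4 called genes per list with the largest absolute log2 fold change, Il22, Ccl20, Il7, Cyp1a1 and Krt14, and the 3 genes most alike to each of the 9 with at least 10 counts in all libraries. Fcer2a, Pax5, Dsg3, Il12a, Il21, Cyp1a2, Crlf2, Traf3ip2 and other called markers were named after their values were seen. Alternatives were the quasi-likelihood F test, DESeq2 1.42.0, other size factors (RLE, library totals), other filters, replicates 1 to 3 alone, each library left out, a replicate block and a covariate for Y-linked counts. The quasi-likelihood fits of subsets and the fit without KSR23 replicates 1 and 4 were added after seeing the data. Some genes that the naming rule covers are not reported here.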

Additional observations from a re-analysis of the deposited data

Results flagged for a closer look

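Within a group of 5 libraries, the highest or lowest value was set against the others by its gap over the group's range (Dixon's critical value 0.71). Of 16 groups scanned, 5 held a library that stood apart. The usual chance rate of about 1 in 20 assumes exchangeable, normally spread values. These low counts and uneven libraries do not meet that, so no excess is read from it. Il12b was at 0 CPM (0 counts) in WT replicate 1, where the next library had 3 counts, and at 1.13 CPM (40 counts) in KSR23 replicate 5, where the next was at 0.569 CPM. Il12rb1 reached 1.45 CPM (41 counts) in WT replicate 2, against 0.461 CPM in the next WT library. Ahr reached 6.35 CPM (205 counts) in WT replicate 1, against 3.78 CPM. Il17f reached 1.35 CPM (34 counts) in KSR23 replicate 3, against 0.54 CPM. The causes were not tested.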

How the results depend on the processing

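The 3 calls (Il12b, Il17f, Ccr6) held with DESeq2, RLE size factors, library totals alone, no filter and the Y-linked covariate. A filter of 5 counts in every library kept 1 of them, Ccr6, since the others were not tested there. With replicates 1 to 3 alone 0 were called, and 579 genes in all against 3262 (140 by the quasi-likelihood F test, also with 0 of the 3); fewer libraries entered these fits. In leave-one-out fits 0 to 3 of the 8 genes were called by the quasi-likelihood F test and 3 to 4 by the likelihood ratio test, and 1774 to 3802 genes in all; by the quasi-likelihood F test (2711 on all libraries) these were 2107, 1948, 1890 and 1774 without WT replicates 1, 3, 4 and 5, 2119 and 1909 without KSR23 replicates 4 and 5, and 2953 and 3246 without KSR23 replicates 1 and 3. Without KSR23 replicates 1 and 4 the quasi-likelihood F test called 0 of the 8 but 3250 genes in all (4029 by the likelihood ratio test). The deviations of same-numbered libraries were related by r from -0.69 to 0.41, negative in replicates 1 and 3 and positive in replicates 2, 4 and 5. WT replicate 1 reached r = 0.82 with KSR23 replicate 3, so these values do not settle whether the numbers pair the libraries. With a replicate block the 3 stayed called (adjusted p = 0.0309, 0.0104 and 0.027, edgeR likelihood ratio test) and 2202 genes were called. The log2 fold change of Ahr reversed to 0.12 without WT replicate 1, 0.047 without KSR23 replicate 4 (0.048 by the quasi-likelihood F test) and 0.10 without KSR23 replicates 1 and 4, the lowest leave-one-out value being -0.22. Depth limits Il17a, Il12b and Il17f, whose WT counts lay at or near the floor.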

Other observations

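Ahr and Il7r were the only ones of the 9 genes with at least 10 counts in all 10 libraries. After centring log2 CPM within each group, the genes most like Ahr among 12379 were Gm6377 (r = 0.929), Kbtbd3 (0.902) and Palmd (0.884), and those most like Il7r were Muc1 (0.911), Gal3st4 (0.897) and Wdr19 (0.841), over 10 libraries, in each of which both genes share the depth. These values are a description without a test.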
